A study of Mus musculus with 2 samples.

Results

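Irx1, Irx2, Hhex, Etv1, Meis2 and Pbx3 are transcription factor genes that are used as identity genes of the alpha, delta and gamma cells of the pancreatic islet. They were chosen by name, as 6 of the 33038 genes listed in either of 2 count tables, and all 6 had a row in both. The choice was made with earlier results of these data known. Their levels were read across cells grouped by hormone: a cell was counted for insulin (Ins1 plus Ins2), glucagon (Gcg), somatostatin (Sst) or pancreatic polypeptide (Ppy) when the UMIs of that hormone reached 1% of all its UMIs (unique molecular identifiers, each standing for 1 captured transcript). The cells came from islets of control C57BL/6J mice at 8 weeks of age, with no allele or treatment named in the labels. According to the study's methods the mice were male and the islets were picked by hand. They were prepared with RevGel-seq, in which each cell is tied to a barcoded bead and held apart from its neighbours in a gel that can be turned liquid again. The libraries, called library 1 and library 2 here, were made from the same islet preparation with 10000 input cells each. They are technical replicates, so every p-value below measures the spread between 2 preparations of the same cell suspension and none of the spread between animals.

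Each islet endocrine cell type is known by its main hormone: insulin for beta cells, glucagon for alpha cells, somatostatin for delta cells and pancreatic polypeptide for gamma cells. Irx1 and Irx2 are neighbouring Iroquois homeobox genes and are known as alpha cell genes in the mouse islet. Hhex encodes a homeodomain protein that delta cells need to keep producing somatostatin. Etv1 encodes an ETS-family factor and Meis2 a TALE-class homeodomain factor, and both have been used as gamma cell markers. Pbx3 encodes another TALE-class homeodomain protein, and PBX and MEIS proteins bind DNA together.

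Library 1 held 735 cells with 15931154 UMIs and library 2 held 748 cells with 17440292. They shared 0 barcodes, and hormone transcripts took 26.2% and 26.5% of their UMIs. Levels are given as CPM, the UMIs of a gene per 1000000 UMIs of all genes other than Ins1, Ins2, Gcg, Sst and Ppy. In library 1 and library 2 in turn, insulin was the only hormone in 182 and 190 cells, Gcg in 182 and 174, Sst in 35 and 23, and Ppy in 54 and 68. A further 65 and 86 cells had Gcg with Ppy, and 77 and 71 had Sst with Ppy. These 6 groups are named by their hormones below, and "Gcg cells" means cells with Gcg alone. Counts were summed over the cells of each group in each library, and the 12 sums, of 298300 to 2823605 non-hormone UMIs, were tested with edgeR's quasi-likelihood test with Benjamini-Hochberg adjustment over 12986 genes. Marker lists for other cell types, summed, ranged over these sums from 20.2 to 589 CPM for endothelial cells, 0 to 72.7 for leukocytes, 3.35 to 135 for stellate cells or pericytes, 413 to 1065 for duct, 6.64 to 312 for acinar and 39.3 to 99.7 for Schwann cells. The acinar list was at 154 to 312 CPM in the Sst and Sst+Ppy sums and at 6.64 to 21.5 CPM in the others, and the part of such cells in the results was not tested.

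Promoter windows from RefSeq (GRCm38.p6) were found for 4 of the 6 genes: Irx2, Hhex, Etv1 and Meis2. Those of Irx2 and Hhex are shown, as genes that were higher in Gcg and in Sst cells respectively, while those of Etv1 and Meis2 lie inside the annotated gene and are left out. Each window runs up to the annotated gene start. Capitals mark GGGCGG, the GC box, on either strand, a motif chosen after the sequences were seen. It matched 2 times in 250 bases of Irx2 and 3 times in 219 bases of Hhex, and 32.7% and 28.3% of all 32851 windows of those lengths hold it. The window of Irx2 lies at chr13:72628570-72628819 and that of Hhex at chr19:37434591-37434809, both on the plus strand. TGACAG (a Meis-type motif), TAATTA (a homeodomain motif) and CCGGAA (an ETS-type motif), also sought on both strands, were not among the letters of either window. Over all windows of 250 bases, 15.9%, 4.84% and 12.0% hold them.
Irx2: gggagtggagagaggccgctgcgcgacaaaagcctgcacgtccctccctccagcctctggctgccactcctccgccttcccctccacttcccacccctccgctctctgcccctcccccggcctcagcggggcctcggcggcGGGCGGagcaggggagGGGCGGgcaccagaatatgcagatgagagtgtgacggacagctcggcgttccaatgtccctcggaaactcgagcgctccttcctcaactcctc
Hhex: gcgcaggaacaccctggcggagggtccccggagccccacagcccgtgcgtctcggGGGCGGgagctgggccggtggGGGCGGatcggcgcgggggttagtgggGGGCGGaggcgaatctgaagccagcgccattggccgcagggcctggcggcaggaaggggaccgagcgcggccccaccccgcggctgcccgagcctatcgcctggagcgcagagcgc

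Irx1 was a gene of the cells with Gcg. Its level in the Gcg cells was 319 CPM in library 1 and 290.1 CPM in library 2, and in the Gcg+Ppy cells it was 202 and 196 CPM. In each of the other 4 groups both libraries lay at or below 5.49 CPM: 1.11 and 3.79 in insulin cells, 2.20 and 0 in Sst cells, 1.72 and 4.10 in Ppy cells, 0 and 5.49 in Sst+Ppy cells. No library of these 4 groups came near the lowest library with Gcg, and among themselves the 4 overlapped. A UMI of Irx1 was seen in 92.9% and 89.1% of the Gcg cells and in 1.65% and 3.68% of the insulin cells. With every cell thinned to 3000 non-hormone UMIs, the shares were 59.3% and 52.9% in Gcg cells and at most 1.58% in insulin cells. Cells with leukocyte markers, which should lack the gene, had it in 0 of 81, with an exact upper limit of 4.45%. Their median depth was 10916 UMIs against 18734.5 in insulin cells. Cells so few and shallower cannot show whether the share in insulin cells was above background. Against insulin cells the log2 fold change was 6.92 (SE 0.27, adjusted p = 3.14e-18, 121-fold), and against Ppy cells it was 6.58 (SE 0.30, adjusted p = 9.68e-16). In the Sst cells only 1 UMI stood against 1656 in the Gcg cells, a ratio of 229 with a 95% counting interval of 41.0 to 9049. The likeness of these 4 groups depended on the grouping at 1%. With cells grouped at 5%, Irx1 was called higher in Ppy than in insulin cells (log2 fold change 2.33, adjusted p = 7.27e-05). It was then also called lower in Sst than in Ppy cells (-1.76, adjusted p = 0.0106). Irx1 lies on the minus strand at chr13:71957921-71963723 (GRCm38), 665097 bases from Irx2.

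Irx2 followed Irx1 in the Gcg cells but was not confined to them. Its level was 286 and 301 CPM in Gcg cells and 237 and 216 CPM in Gcg+Ppy cells. Ppy cells came next with 25.8 and 38.1 CPM, followed by Sst+Ppy cells with 15.8 and 11.0 and insulin cells with 9.23 and 14.7, while Sst cells had 2.20 and 3.35. Both libraries of the Ppy cells thus lay above both of the Sst+Ppy, insulin and Sst cells. The Ppy level came from 95 UMIs in 39 of 122 cells (32.0%, exact Clopper-Pearson interval 23.8% to 41.0%), and the top cell of each library gave 13.3% and 15.4% of them. Those cells are deep, with median counts of 28784.5 and 30339.5 UMIs, and after thinning the share fell to 9.26% and 4.41% against 2.75% and 2.63% in insulin cells. Irx2 was higher in Gcg than in insulin cells by a log2 fold change of 4.58 (SE 0.18, adjusted p = 3.63e-18) and than in Ppy cells by 3.17 (SE 0.17, adjusted p = 3.13e-14). It was also higher in Ppy than in insulin cells, by 1.41 (SE 0.26, adjusted p = 9.61e-05). The difference between insulin and Sst cells rested on 60 against 2 UMIs, a ratio of 4.45 (1.18 to 37.6). Its adjusted p of 0.0449 rose to 0.144 without insulin library 2, to 0.312 without Sst library 1 and to 0.118 without Sst library 2. With the library number as a replicate block it was 0.0504, and the direction turned at hormone thresholds of 2% and 5% (log2 fold changes of 0.029 and 0.11, adjusted p = 0.972 and 0.853). The insulin and Sst cells were also not told apart by DESeq2 (adjusted p = 0.135) or at a threshold of 0.5% (adjusted p = 0.215). Against the Gcg cells the Sst cells had 2 UMIs to 1601, a ratio of 111 (30.6 to 915). Irx2 occupies chr13:72628820-72634198 on the plus strand.

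Hhex was a gene of the cells with Sst. Its level was 316 and 479 CPM in the Sst cells and 295 and 279.8 CPM in the Sst+Ppy cells, against 7.74 and 5.86 in Ppy cells, 4.43 and 2.11 in insulin cells, 1.14 and 0.354 in Gcg cells and 0 and 1.39 in Gcg+Ppy cells. The libraries of the Sst cells differed by more than those of the Sst+Ppy cells, and every library with Sst was far above every library without it. A UMI was seen in 94.3% and 95.7% of the Sst cells at median depths of 13123 and 13692 UMIs, and in 1.65% and 0.575% of the Gcg cells at 16413.5 and 19534. After thinning, the shares were 57.1% and 73.9% in Sst cells and 0.549% and 0% in Gcg cells. The log2 fold change of Sst cells was 6.70 against insulin cells (SE 0.28, adjusted p = 8.43e-17) and 5.78 against Ppy cells (SE 0.28, adjusted p = 9.63e-15), and that of Gcg against Sst cells was -8.81 (SE 0.34, adjusted p = 3.17e-17).

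Among the groups without Sst, Hhex was close to the limit of detection. Of the 19 UMIs in Ppy cells, 15 came from the 5 cells whose Sst share was 0.1% to 1%: 7 UMIs in 3 cells of library 1 and 8 in 2 cells of library 2. The other 117 Ppy cells held 2 UMIs in each library. Gcg cells were below insulin cells (log2 fold change -2.11, SE 0.74, adjusted p = 0.0271) and below Ppy cells (-3.03, SE 0.71, adjusted p = 0.00284), on 4 UMIs in 356 cells. The comparison with insulin cells was not called without insulin library 1 (adjusted p = 0.298) or Gcg library 2 (adjusted p = 0.218), nor without the deepest 10% of cells (log2 fold change -1.47, adjusted p = 0.157) or at hormone thresholds of 0.5% (adjusted p = 0.0559) and 2%, where the log2 fold change was -0.31 (adjusted p = 0.687). That with Ppy cells was not called without Gcg library 2 (adjusted p = 0.0539) or at thresholds of 0.5% (-2.22, adjusted p = 0.0670) and 2% (-1.04, adjusted p = 0.182). Hhex lies on the plus strand at chr19:37434810-37440731.

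Etv1 was high in every endocrine group except the insulin cells. Its level was 762 and 730.0 CPM in Ppy cells, 707 and 751 in Gcg+Ppy cells, 590.0 and 564 in Gcg cells, 492 and 469 in Sst cells and 456 and 503 in Sst+Ppy cells, but only 32.8 and 30.7 in insulin cells. The Ppy and Gcg+Ppy libraries overlapped, as did the Sst and Sst+Ppy libraries, and the Gcg libraries lay between these pairs. A UMI was seen in 94.4% and 100% of Ppy cells and in 24.2% and 18.9% of insulin cells, against 4.88% and 12.5% of cells with leukocyte markers, whose median depths were 10511 and 11324 UMIs. After thinning it was in 7.69% and 7.37% of insulin cells. Compared with insulin cells, the log2 fold change was 4.49 in Ppy cells (SE 0.12, adjusted p = 1.86e-21), 4.14 in Gcg cells (SE 0.12, adjusted p = 3.57e-21) and 3.78 in Sst cells (SE 0.14, adjusted p = 4.12e-18). Between the non-insulin groups the differences were much smaller. Ppy cells were 1.63-fold above Sst cells (log2 fold change of Sst against Ppy -0.71, SE 0.11, adjusted p = 1.58e-05) and 1.28-fold above Gcg cells (Gcg against Ppy -0.35, SE 0.09, adjusted p = 0.00419). The second of these was lost without Gcg library 2 (adjusted p = 0.0893) or Ppy library 1 (adjusted p = 0.0555). Gcg cells were 1.28-fold above Sst cells (adjusted p = 0.0181), a call lost without Gcg library 1 (adjusted p = 0.0863), Sst library 1 (adjusted p = 0.0557) or Sst library 2 (adjusted p = 0.0704). The call between Gcg and Sst cells was also lost in DESeq2 (log2 fold change 0.31, adjusted p = 0.0607) and at a hormone threshold of 2% (0.28, adjusted p = 0.0524). Etv1 spans chr12:38779380-38870484 on the plus strand.

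Meis2 was present in all 6 groups and, although it is used as a gamma cell marker, its highest level was in the cells with Sst. It stood at 690.0 and 905 CPM in Sst cells and at 681 and 696 in Sst+Ppy cells, then at 456 and 563 in Ppy cells, 409.5 and 463 in Gcg+Ppy cells, 359 and 366 in Gcg cells and 312 and 332 in insulin cells. Both libraries of the Sst cells were above both of the Ppy cells, and the Ppy and Gcg+Ppy libraries overlapped. A UMI was found in 86.8% and 86.8% of insulin cells, the lowest share of the 6 groups, and in 2.44% and 2.50% of cells with leukocyte markers. Sst cells were above insulin cells by a log2 fold change of 1.15 (SE 0.12, adjusted p = 2.20e-08), above Gcg cells (Gcg against Sst -1.02, SE 0.12, adjusted p = 1.87e-07) and above Ppy cells by 0.54 (SE 0.12, adjusted p = 0.00218). Ppy cells were above insulin cells by 0.61 (SE 0.11, adjusted p = 6.54e-05) and above Gcg cells (Gcg against Ppy -0.48, SE 0.11, adjusted p = 0.00177). Gcg and insulin cells differed by 0.13 (SE 0.11, adjusted p = 0.369) and the test made no call. The call between Sst and Ppy cells was lost without Sst library 2 (adjusted p = 0.125) or Ppy library 1 (adjusted p = 0.0709), and that between Gcg and Ppy cells without Ppy library 2 (adjusted p = 0.127). At a hormone threshold of 0.5% the call between Sst and Ppy cells was lost too (log2 fold change 0.36, adjusted p = 0.0656). Meis2 spans chr2:115863064-116065839 on the minus strand.

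Pbx3 set the Gcg cells apart by its low level. It was at 13.7 and 12.7 CPM in Gcg cells and at 34.1 and 32.0 in Gcg+Ppy cells, but at 75.7 and 74.1 in insulin cells, 68.1 and 80.5 in Sst cells, 73.1 and 93.2 in Ppy cells and 78.1 and 114 in Sst+Ppy cells. The libraries of the Sst and of the Ppy cells spanned both of the insulin cells and overlapped those of the Sst+Ppy cells, which lay above the insulin cells, and the Gcg and Gcg+Ppy libraries lay below all of these. A UMI was seen in 15.9% and 16.7% of Gcg cells, against 54.4% and 51.6% of insulin cells, whose median depths were 19642 and 17169.5 UMIs to 16413.5 and 19534 in Gcg cells, and after thinning in 3.30% and 4.02% against 17.6% and 18.9%. Cells with leukocyte markers had it in 9 of 81 (11.1%), and after thinning in 2.44% and 2.50%, near the shares of the Gcg cells. Whether leukocytes express Pbx3 was not tested, so their share is not a measure of background. The log2 fold change of Gcg cells was -2.54 against insulin cells (SE 0.21, adjusted p = 6.27e-11), -2.37 against Sst cells (SE 0.30, adjusted p = 6.65e-07) and -2.65 against Ppy cells (SE 0.22, adjusted p = 3.36e-10). Insulin, Sst and Ppy cells were not told apart, with adjusted p of 0.688, 0.685 and 0.522 for Sst against insulin, Ppy against insulin and Sst against Ppy. Pbx3 lies on the minus strand at chr2:34171457-34373142, where it overlaps the antisense gene C79798, which had 56 UMIs in all cells to the 1244 of Pbx3.

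**Figure D1:**
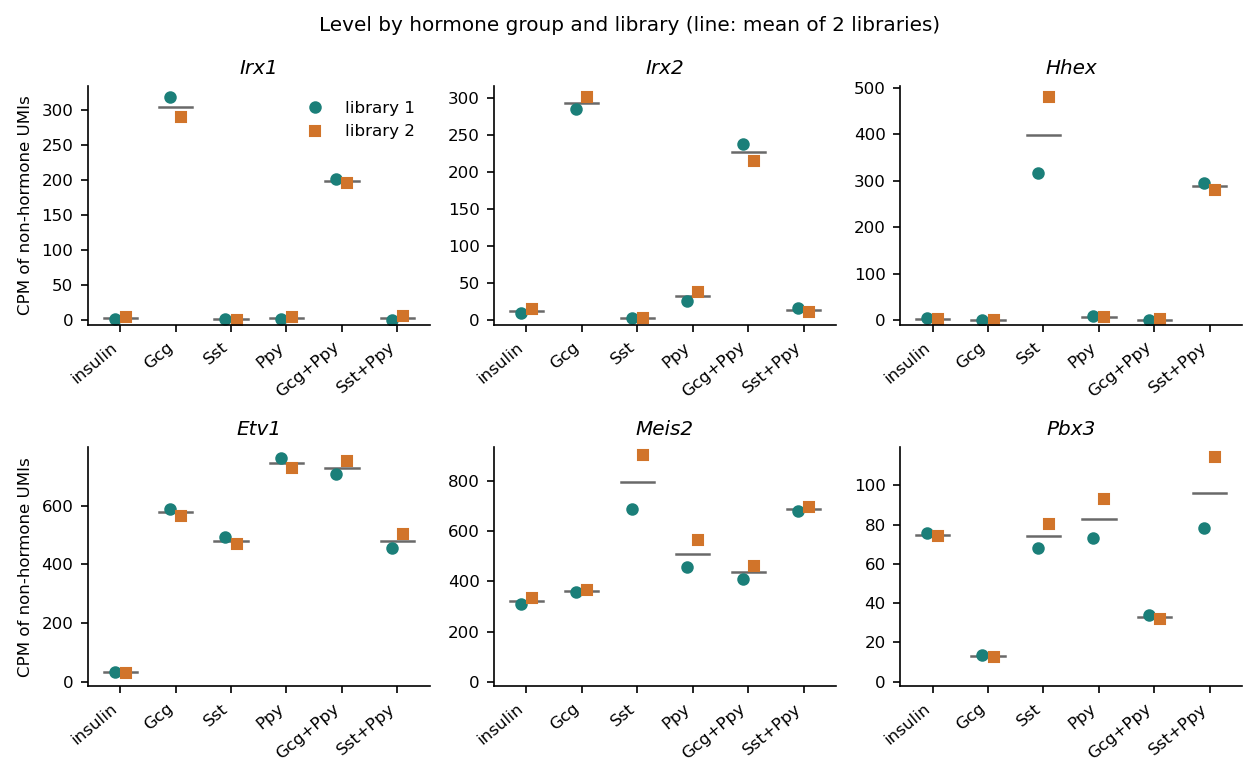
Level of each gene (CPM of non-hormone UMIs, linear axes from 0) in the 6 hormone groups, with a circle for library 1, a square for library 2 and a line for their mean. Irx1 and Irx2 stand high only with Gcg and Hhex only with Sst, Etv1 is low only in insulin cells, Meis2 is highest with Sst and Pbx3 is lowest with Gcg.

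Counted over the single-hormone groups, 6 of 6 genes were called between Gcg and Sst cells and 6 of 6 between Gcg and Ppy cells, where 18.0% and 17.8% of all tested genes were called. In Gcg against insulin cells 5 of 6 were called, 3 higher and 2 lower, against 36.0% of all genes. Sst against insulin cells gave 4 of 6 against 21.0%, Ppy against insulin cells 3 of 6 against 30.3%, and Sst against Ppy cells 4 of 6 against 14.5%. The genes had been picked as identity genes of these cell types, so a count above the share of all genes is not a finding about them. The median log2 fold change of all genes lay between -0.02 and 0.03 in these 6 contrasts.

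The cells with Gcg and Ppy kept the Gcg pattern for the Irx genes and Hhex, and were near the Ppy cells for Etv1. Against Ppy cells, Irx1 was higher by a log2 fold change of 5.97 (SE 0.32, adjusted p = 1.05e-13) and Irx2 by 2.79 (SE 0.18, adjusted p = 4.95e-12), while Pbx3 was lower by -1.34 (SE 0.22, adjusted p = 7.81e-05). Hhex was lower too, on 2 UMIs against 19 (ratio 8.46, interval 2.04 to 74.9, adjusted p = 0.0340), and the adjusted p was between 0.0650 and 0.215 when either library of either group was left out. The Hhex call was also lost in DESeq2 (adjusted p = 0.0834) and at a hormone threshold of 2% (adjusted p = 0.0604). In the main fit 4 of 6 genes were called, against 8.16% of all genes. Etv1 differed by -0.02 (SE 0.09, adjusted p = 0.953) and Meis2 by -0.21 (SE 0.11, adjusted p = 0.292). The doublet caller Scrublet called 2 of the 151 Gcg+Ppy cells and 2 of the 148 Sst+Ppy cells. How many barcodes of these groups hold more than 1 cell was not tested.

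Against the Gcg cells, only Pbx3 was called, 1 of 6 genes where 0.400% of all genes, 52 in number, were called. It was 2.48-fold higher in the Gcg+Ppy cells (log2 fold change 1.31, SE 0.26, adjusted p = 0.0132), at 34.1 and 32.0 CPM against 13.7 and 12.7, so that both libraries were higher. With 1 of the 4 sums left out the log2 fold change stayed between 1.25 and 1.37, but the call was lost each time: the adjusted p was 0.0967 without Gcg library 1, 0.204 without Gcg library 2, 0.0950 without Gcg+Ppy library 1 and 0.108 without Gcg+Ppy library 2. Those fits have fewer sums. It was also lost at hormone thresholds of 2% (log2 fold change 1.01, adjusted p = 0.112) and 5% (1.32, adjusted p = 0.0612). Irx1 was 1.53-fold lower in the Gcg+Ppy cells (log2 fold change -0.62, SE 0.15, adjusted p = 0.0626), with both libraries below both of the Gcg cells, and was not called here, although it was called with no low-count filter (adjusted p = 0.000565), without the deepest 10% of cells (adjusted p = 0.0208) and with a hormone threshold of 5% (adjusted p = 0.00385). Over all alternatives its adjusted p ran from 0.000565 to 0.611. For Irx2 the log2 fold change was -0.38 (SE 0.13, adjusted p = 0.255), for Etv1 0.34 (SE 0.09, adjusted p = 0.0884), for Meis2 0.27 (SE 0.11, adjusted p = 0.432) and for Hhex 0.08 (SE 1.25, adjusted p = 0.999), where 2 UMIs stood against 4.

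In the cells with Sst and Ppy, none of the 6 genes was called by edgeR against the Sst cells, where 4 genes in all, 0.0308% of those tested, were called. At an unadjusted p under 0.05 the count was 2 of 6, beside 1001 of all 12986 genes, and DESeq2 called 0 of 6. The log2 fold change was -0.43 for Hhex (SE 0.18, adjusted p = 0.560), 0.00 for Etv1 (SE 0.11, adjusted p = 0.999), -0.18 for Meis2 (SE 0.12, adjusted p = 0.760) and 0.41 for Pbx3 (SE 0.25, adjusted p = 0.739). Irx2 had 29 UMIs against 2, a ratio of 5.04 with a counting interval of 1.27 to 43.6, and its adjusted p was 0.525. The 23 Sst cells of library 2 gave the smallest sum of the fit, 298300 UMIs, and a missed threshold does not show that the levels were equal.

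Against Ppy cells, the Sst+Ppy cells differed in 4 of 6 genes, with 16.5% of all genes called. Hhex was higher by a log2 fold change of 5.35 (SE 0.27, adjusted p = 1.35e-14) and Meis2 by 0.36 (SE 0.11, adjusted p = 0.0231). Etv1 was lower by -0.70 (SE 0.09, adjusted p = 1.51e-06) and Irx2 by -1.36 (SE 0.31, adjusted p = 0.00206). The Irx2 call was lost without Ppy library 2 (adjusted p = 0.112) or Sst+Ppy library 2 (adjusted p = 0.0599). The Meis2 call was lost without Ppy library 1 (adjusted p = 0.320), Sst+Ppy library 1 (adjusted p = 0.0913) or Sst+Ppy library 2 (adjusted p = 0.141). Without the deepest 10% of cells the Irx2 call was lost as well (log2 fold change -0.91, adjusted p = 0.0935). The Meis2 call was also lost at a hormone threshold of 2% (log2 fold change 0.22, adjusted p = 0.308). Summed endothelial markers, 7 genes of which 0 were at 0 in any of the 6 groups, reached 589 and 40.2 CPM in Sst cells and 337 and 44.8 in Sst+Ppy cells. The part of endothelial cells in the levels of Hhex and Meis2 was not tested.

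Whether the presence of Ppy went with a different change in Gcg cells than in Sst cells was asked with the difference of both contrasts. None of the 6 genes was called, and 0.116% of all genes were. At an unadjusted p under 0.05 the count was 4 of 6, beside 1009 of all 12986 genes. DESeq2 was not run on this contrast. The difference was 0.90 for Pbx3 (SE 0.36, adjusted p = 0.558), 0.45 for Meis2 (SE 0.16, adjusted p = 0.512), 0.33 for Etv1 (SE 0.14, adjusted p = 0.583) and -2.69 for Irx2 (SE 0.83, adjusted p = 0.406).

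**Figure D2:**
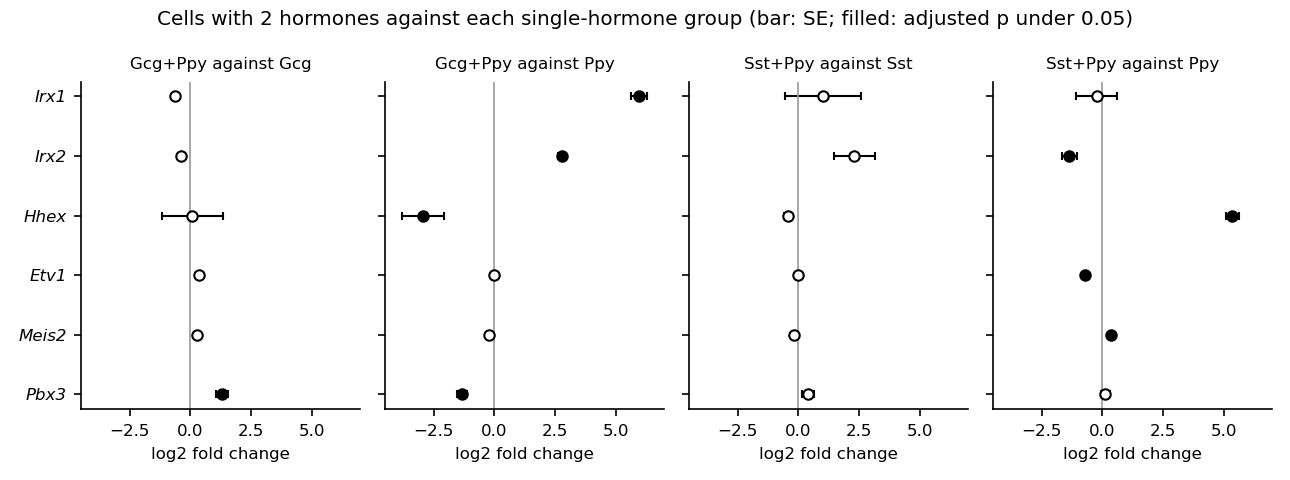
Log2 fold change (x axis) of each gene in cells with 2 hormones against each of the matching single-hormone groups, with bars of 1 SE and filled points where the edgeR adjusted p was under 0.05. Only Pbx3 is filled against the Gcg cells and none is filled against the Sst cells, while 4 genes are filled in each comparison with the Ppy cells.

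Among the 151 Gcg+Ppy cells, 113 had more Gcg than Ppy and 38 had more Ppy than Gcg. Irx1 was at 220.5 and 224 CPM in the former and at 142 and 127 in the latter, and Irx2 at 264 and 241 against 153 and 151. Meis2 went the other way, with 362 and 424 CPM where Gcg led and 560.2 and 562 where Ppy led, and Etv1 was at 664 and 740.1 against 844 and 779. For each of these 4 genes, and for Pbx3 below, both libraries differed in the same direction without overlap. How many of all genes separate in this way was not counted, so the separation is a description only. In a separate edgeR fit of 7 groups the log2 fold change, Ppy-led against Gcg-led, was -0.72 for Irx2 (SE 0.19, adjusted p = 0.0691), -0.73 for Irx1 (SE 0.22, adjusted p = 0.146), 0.52 for Meis2 (SE 0.14, adjusted p = 0.0864) and 0.21 for Etv1 (SE 0.11, adjusted p = 0.490). Pbx3 was at 31.8 and 26.3 CPM against 41.1 and 46.4 (log2 fold change 0.62, SE 0.35, adjusted p = 0.526). None was called, with 0.695% of all genes called. At an unadjusted p under 0.05 the count was 4 of 6, beside 1394 of all 12380 genes in that fit. DESeq2 called 1, Meis2 (adjusted p = 0.0477). With no low-count filter Irx1, Irx2 and Meis2 were called by edgeR (adjusted p = 0.0366, 0.0224 and 0.0457), as they were at a hormone threshold of 0.5% (0.0412, 0.0464 and 0.0461). The Sst+Ppy cells led by Ppy numbered 7 and 13, too few in library 1 for the fit. They had 194 and 209 CPM of Hhex, against 309.9 and 301 where Sst led, and 689.5 and 603 CPM of Etv1 against 421 and 473, values with no test.

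Cells with Gcg were also divided by their share of Ppy. Gcg cells with under 0.1% of Ppy had 284 and 307 CPM of Irx1, those with 0.1% to 1% had 345 and 275, those with 1% to 5% had 265 and 237, those with 5% to 20% had 166 and 156, and those with at least 20% had 125 and 106. Irx2 was at 282 and 307 CPM in the lowest bin and at 156 and 151 in the highest. Etv1 went from 556 and 574 CPM to 891 and 901, Meis2 from 346 and 371 to 727 and 636, and Pbx3 from 8.06 and 10.6 to 54.7 and 53.0. The highest bin held 7 and 15 cells, so it is thin, and without it the bins of 5% to 20% still had less Irx1 and Irx2 than the lowest bin in both libraries. The median Gcg share fell from 24.8% and 25.1% of UMIs in the lowest bin to 5.23% and 3.48% in the highest, so a lower share of Gcg cannot be told apart from a higher share of Ppy. Hhex stayed at 0 to 6.12 CPM in all bins.

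In cells with Sst, Hhex was at 313 and 414 CPM under 0.1% of Ppy, in 5 and 4 cells, and at 317 and 489.8 between 0.1% and 1%. It was at 315 and 302 CPM between 1% and 5%, at 251 and 261 between 5% and 20%, and at 144 and 190.4 from 20%, in 3 and 8 cells. Etv1 was at 352 and 370.1 CPM in the bin of 5% to 20% and at 672 and 631 from 20%. The bins above 5% and under 0.1% each held 10 cells or fewer per library, and only those between 0.1% and 5% are well filled apart from the 19 cells of library 2 between 0.1% and 1%.

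**Figure D3:**
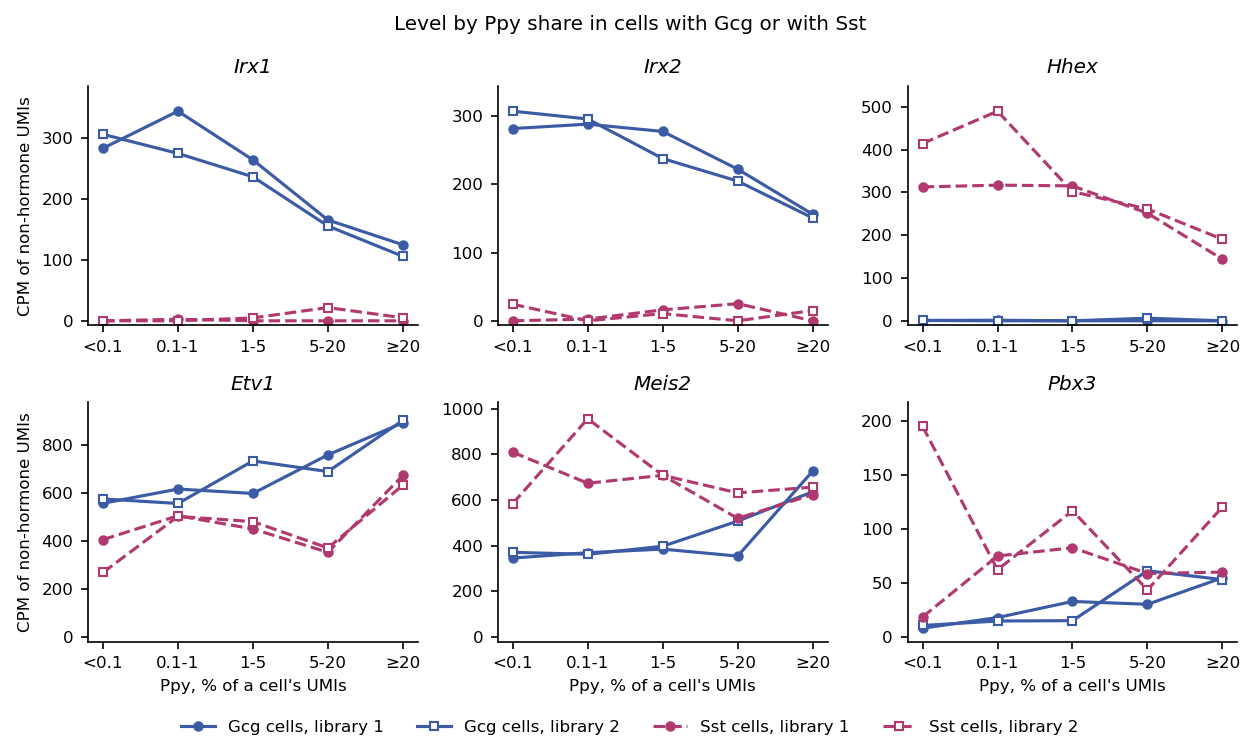
Level of each gene (CPM of non-hormone UMIs) by the share of Ppy in a cell's UMIs, for cells with Gcg (solid blue) and cells with Sst (dashed red) that lack the other hormones, with filled circles for library 1 and open squares for library 2. In Gcg cells Irx1 and Irx2 go down and Etv1, Meis2 and Pbx3 go up towards the bin from 20%, which holds 7 and 15 cells, and in Sst cells Hhex is lowest there.

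Read from the side of the Ppy cells, the Irx genes divided differently. In Ppy cells with under 0.1% of Gcg, Irx1 was at 2.07 and 4.86 CPM and Irx2 at 25.8 and 31.3. With 0.1% to 1% of Gcg, in 10 and 11 cells, Irx1 was at 0 in both libraries and Irx2 at 25.5 and 75.1. With 1% to 5% of Gcg, in 4 and 11 cells, Irx1 was at 132 and 80.4 CPM and Irx2 at 132 and 131. Irx2 was therefore detected in Ppy cells with hardly any Gcg, where Irx1 was near the level of the insulin cells.

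Cells with Gcg and Sst, with or without Ppy, numbered 12 and 17, and all 29 had a UMI of Irx1 or Irx2. Irx1 was at 160.1 and 153 CPM, Irx2 at 150.3 and 153, and Hhex at 157 and 123. Each lay between its level in the Gcg cells and in the Sst cells, and the 95% counting intervals of the libraries overlapped. A UMI of Irx1 or Irx2 together with a UMI of Hhex was present in 22 of 29 cells (75.9%, exact interval 56.5% to 89.7%), in 10 of 12 in library 1 and in 12 of 17 in library 2. The share was 1.12% of the 356 Gcg cells, 5.17% of the 58 Sst cells, 0.662% of the Gcg+Ppy cells and 10.1% of the Sst+Ppy cells. It was 0 of 372 insulin cells, with an exact upper limit of 0.987%. After thinning it was 34.5% in the cells with Gcg and Sst, 0.281% in Gcg cells and 1.72% in Sst cells. The remaining 7 cells had Irx1 or Irx2 without Hhex.

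The median depth of those 29 cells was 22699 UMIs, against 18187 in Gcg cells and 13259.5 in Sst cells. Scrublet called 3 of them as doublets, 2 of which had both genes, out of 16 called cells in all. How many of the 29 barcodes hold more than 1 cell was not tested. Etv1 was at 520 and 749 CPM, Meis2 at 761 and 440.1 and Pbx3 at 55.6 and 33.4 in these cells, so the libraries differed most in Meis2.

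**Figure D4:**
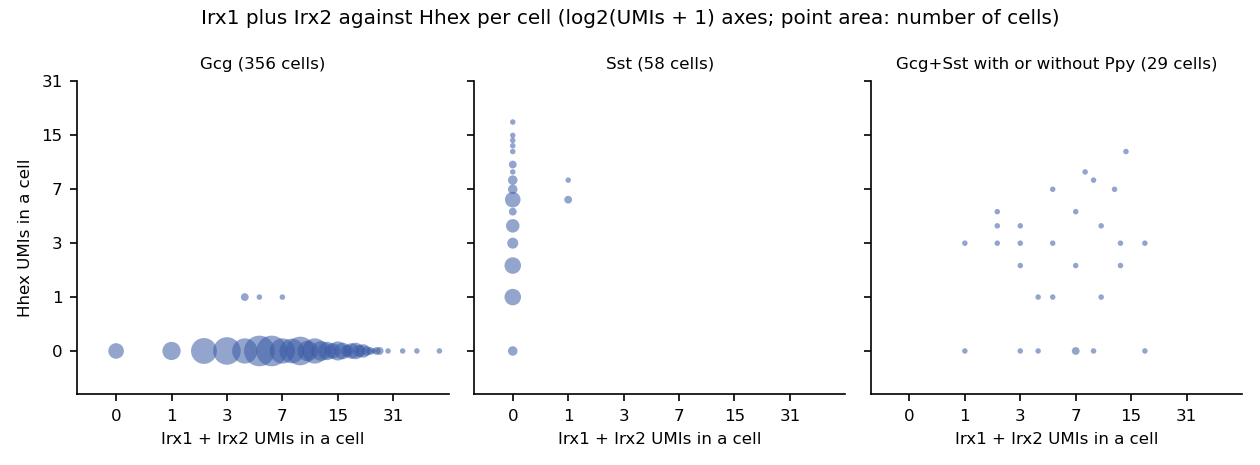
UMIs of Irx1 plus Irx2 (x axis) and of Hhex (y axis) per cell, on log2(UMIs + 1) axes, with point area in proportion to the number of cells. Gcg cells lie along the x axis and Sst cells along the y axis, and 22 of the 29 cells with Gcg and Sst lie off both axes.

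Of the pairs with insulin, the cells with insulin and Sst, with or without Ppy, numbered 19 and 17. They had 110.1 and 145 CPM of Hhex, below both libraries of the Sst cells and above both of the insulin cells, and 193 and 163 CPM of Etv1, likewise between both groups. Irx1 had 1 UMI in 36 cells, and Irx2 was at 9.79 and 5.19 CPM. The 12 and 8 cells with insulin and Ppy had no UMI of Hhex or Irx1, 21.9 and 52.0 CPM of Irx2 and 101 and 240.3 CPM of Etv1. Of the 8 cells with insulin and Gcg, 6 had a UMI of Irx1 or Irx2 and 0 had a UMI of Hhex. These groups had too few cells for the fit, and their values have counting intervals and no test. Scrublet called 3 of the 36 cells with insulin and Sst, 2 of the 20 with insulin and Ppy and 0 of the 8 with insulin and Gcg as doublets. Their median depths were 21907, 21629.5 and 19164.5 UMIs, against 18734.5 in insulin cells and 13259.5 in Sst cells. How many of these barcodes hold more than 1 cell was not tested.

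Among the cells with no hormone at 1%, Meis2 and Hhex were found in cells with endothelial markers. Meis2 was at 999 and 674 CPM in the 27 and 34 cells of that kind, with a UMI in 59 of 61, and overlapped the Sst cells. Hhex was at 36.9 and 31.6 CPM, with a UMI in 40.7% and 47.1% of cells, against at least 279.8 CPM in the Sst and Sst+Ppy cells. In the 41 and 40 cells with leukocyte markers Hhex was at 31.5 and 25.1 CPM, while Meis2 was at 1.75 and 3.13. Irx2 had 0 UMIs in the 61 endothelial cells and 1 in the 81 leukocytes. The 23 and 18 other cells without a hormone had 157 and 55.6 CPM of Hhex, in 7 and 3 cells, of which the top cell gave 51.1% and 80% of the UMIs. In this mixed group the ductal marker list was at 6329 and 4244 CPM against at most 1065 in the 6 hormone groups, and the stellate or pericyte list at 4861 and 1384 CPM against at most 135. It also held endocrine transcripts. The gamma marker Pyy was at 6542 and 2404 CPM and a beta list without insulin at 3099 and 2157, both within the ranges of the 6 hormone groups. Scrublet called 3 of these 41 cells as doublets.

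**Figure D5:**
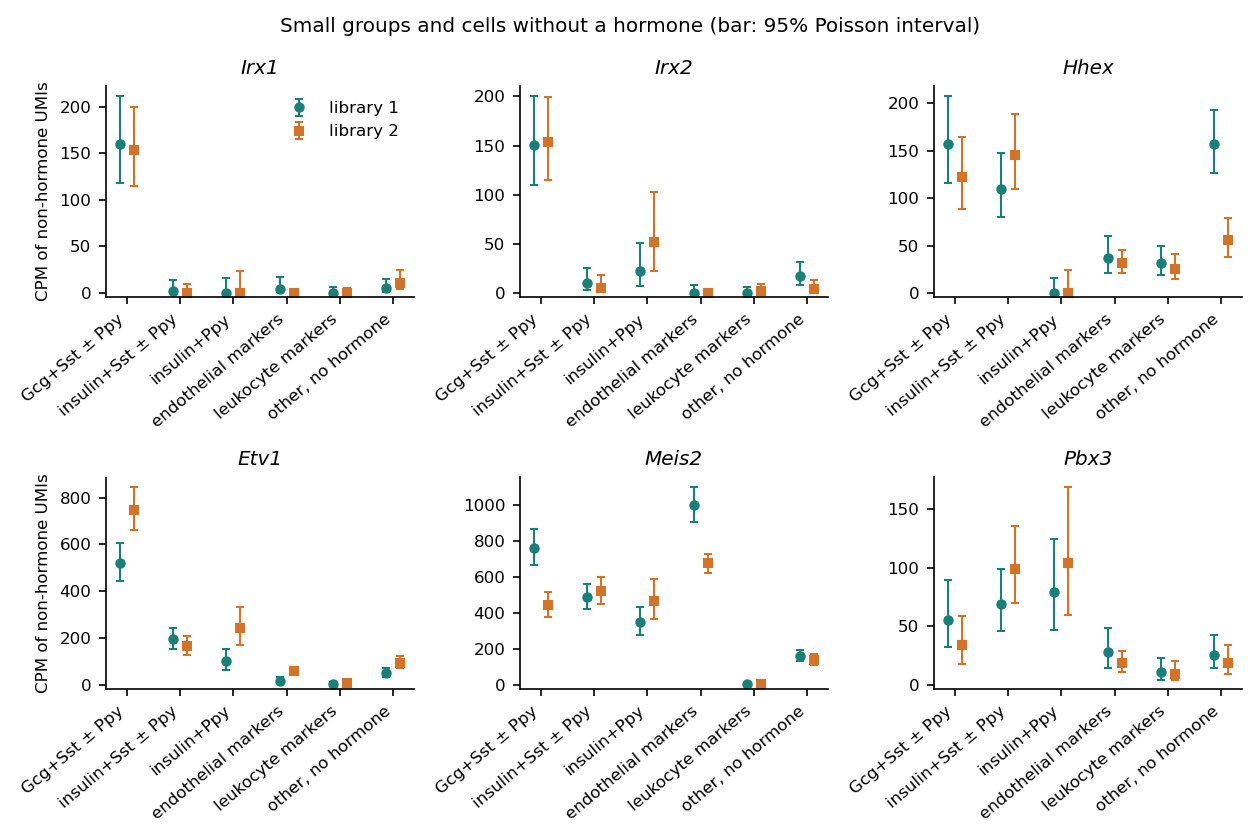
Level of each gene (CPM of non-hormone UMIs) in small hormone groups and in cells without a hormone, with circles for library 1, squares for library 2 and bars for 95% Poisson intervals, which cover counting error only. Cells with Gcg and Sst have Irx1, Irx2 and Hhex together, and cells with endothelial markers have Meis2 at 999 and 674 CPM.

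The genes most like each member across the 6 groups were found by Pearson's r of log2(CPM + 10) over the group means, among 9723 genes with at least 20 CPM in a group. With 6 points that share libraries, r is a description. The closest to Irx1 were Lama2 (r = 0.999), Hhatl (0.998) and Gm9790 (0.998), and Irx2 itself was at 0.967. Closest to Irx2 were Tgfb2 (0.994), Igsf21 (0.993) and Gm8730 (0.993). For Hhex they were Bmp3 (0.999), Dscam (0.999) and Crhr2 (0.999), with Meis2 at 0.910 among the members. Zfp217 (0.999), Gm5454 (0.997) and Serinc5 (0.997) came closest to Etv1, Tspo (0.995), Frk (0.994) and Smim11 (0.994) to Meis2, and Reep5 (0.993), Pnpla8 (0.988) and Itga6 (0.988) to Pbx3. Pbx3 ran against Irx1 with r = -0.954.

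Relatives of the 6 genes, 16 in all, were counted as well, of which 14 had a row and 8 were tested. Irx3 and Irx5, further Iroquois genes, were at or below 1.48 CPM in every library of the 6 groups. Between Gcg and Ppy cells, where edgeR called 17.8% of all genes, 0 of the 8 were called by edgeR or DESeq2. With 8 genes, a count of 0 is not a finding about the relatives. At an unadjusted p under 0.05 there were 2, beside 3733 of all 12986 genes. In Gcg against Sst cells, where 18.0% of all genes were called, 0 were higher and 4 lower, with a median log2 fold change of -0.92 beside 0.03 for all genes. Meis3, another Meis gene, was lower in Gcg than in Sst cells by -1.13 (SE 0.22, adjusted p = 0.000358), at 62.5 and 47.8 CPM against 134 and 121. In Gcg+Ppy against Gcg cells and in Sst+Ppy against Sst cells 0 of 8 were called by edgeR or DESeq2. Of all genes, edgeR called 0.400% and 0.0308% there. There were 1 and 2 at an unadjusted p under 0.05, beside 1125 and 1001 of all 12986 genes.

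Of 33 other islet transcription factors, 28 were tested. In Gcg+Ppy against Gcg cells, where 0.400% of all genes were called, 1 was higher and 2 were lower, with a median log2 fold change of 0.12 beside 0.00 for all genes. Nkx6-1, a beta cell factor, rose by 0.77 (SE 0.15, adjusted p = 0.00972), and Sox4 fell by 0.77 (SE 0.16, adjusted p = 0.0183). The level of Nkx6-1 was 83.4 and 65.2 CPM in Gcg cells and 131 and 122 in Gcg+Ppy cells. It was 386 and 418 CPM in Ppy cells and 1384 and 1511 in insulin cells. In Gcg+Ppy against Ppy cells 3 were higher and 3 lower, with 8.16% of all genes called. In Sst+Ppy against Sst cells, where edgeR called 0.0308% of all genes, 0 of 28 were called by edgeR and 1 by DESeq2. There were 5 at an unadjusted p under 0.05, beside 1001 of all 12986 genes.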

How the data were processed

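RevGel-seq libraries of dissociated mouse islets (2 technical replicates, 1 group) were analysed. The authors deposited 1 table per library of raw UMI counts per gene and cell. According to the methods they used Cytonaut, took cell barcodes above a knee found with UMI-tools, and counted exonic reads on GRCm38 with Ensembl genes, so cells of low depth and intronic reads were left out before deposit. The aligner and the strand setting of the counting are not given in the sources used here. The annotation used here for coordinates was GENCODE M21 on GRCm38.

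The 6 genes and both comparison lists were chosen with earlier results of these data known. Cells were grouped at 1% of UMIs per hormone. Ins1, Ins2, Gcg, Sst and Ppy were left out of library sizes and tests. Counts were summed per group and library where each library had at least 10 cells, and put through the quasi-likelihood test of edgeR 4.0.16 (R 4.3.3) after TMM scaling and the filterByExpr filter, with adjusted p under 0.05 as the call, in 1 fit with 6 residual degrees of freedom. SE is the size of the log2 fold change divided by the square root of F. The test was checked on simulated counts. Named genes were the members, the 3 genes most like each, and at most 4 called genes per list and contrast, of which only some are given, and some are not reported here. Same-numbered sums did not deviate together (r of -0.07 to 0.12 over 15 pairs of groups), so the library number was not a term of the model. Doublets were called with Scrublet in scanpy 1.11.5 and kept (8 cells per library). For shares, each cell was thinned to 3000 non-hormone UMIs, and 0 cells were shallower. Intervals are 95% exact Clopper-Pearson or Poisson intervals and cover counting error only, since the 2 libraries share their cells' source. Shares were not tested, because an exact permutation test of 2 against 2 cannot go below 0.333. Alternatives were other hormone thresholds, DESeq2 1.42.0, RLE scaling, no low-count filter, hormones kept, doublets or the deepest 10% of cells left out, a replicate block, and sums or libraries left out. A gene listed for 1 library only was set to 0 in the other. Leaving out single sums, the difference of 2 contrasts and the pooled small groups were added after seeing the data.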

Additional observations from a re-analysis of the deposited data

How the results depend on the processing

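Of 37 called differences, the direction was kept by all 37 with the library number as a replicate block, with RLE size factors, with no low-count filter, in DESeq2, with hormone genes kept, without called doublets, without the deepest 10% of cells, at a hormone threshold of 0.5%, with the top cell of each sum set to 0 and with either library left out, and by 36 of 37 at a threshold of 2% and 32 of 33 at 5%. The exception was Irx2 in Sst against insulin cells, whose log2 fold change turned to 0.029 at 2% and 0.11 at 5%. The replicate block ended the call for that gene alone (adjusted p = 0.0504). DESeq2 ended 3 calls, leaving out the deepest cells ended 2 and the threshold of 0.5% ended 4. The thresholds of 2% and 5% ended 6 and 1 besides the exception named above, which was not called there either. The size of the log2 fold change was less stable than its direction. It counted as moved in 18 of 37 differences with the top cell of each sum set to 0. With library 1 left out it moved in 18 of 37, and with library 2 left out in 19 of 37.

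Of the 6 genes, the number called in Gcg+Ppy against Gcg cells went from 1 to 2 with no low-count filter and without the deepest 10% of cells, and to 0 at a threshold of 2%. With any of its 4 sums left out it was 0, and in Sst+Ppy against Ppy cells, where it was 4, it was 2 to 3 (2 without Sst+Ppy library 2). Between Gcg+Ppy cells led by Ppy and by Gcg it went from 0 to 3 with no filter and at 0.5%, and to 1 in DESeq2 and without the deepest cells. Over all tested genes, the calls in Gcg+Ppy against Gcg cells went from 52 to 190 with no filter, to 118 at 5% and to 20 to 50 with 1 sum left out, and in Sst+Ppy against Sst cells from 4 to 58 with no filter, to 8 without doublets, to 7 with the block and to 3 to 8 with 1 sum left out. Over 240 fold changes refitted with 1 sum left out, 27 calls were lost, 0 were gained and 0 reversed, with fewer sums in each fit. Thinning moved 32 of 36 shares of cells with a UMI by more than the SD between libraries, the threshold of 5% moved 21, and that of 0.5% moved 9. Sst+Ppy cells were too few to be fitted at 5% or to be split by the leading hormone. Thinning keeps a part of each cell's UMIs, so a share can only fall or stay, and its move is set by the design. The cause of the other changes was not tested.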
